A study of Mus musculus with 10 samples.

Results

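Mab21l1 lies inside Nbea on mouse chromosome 3, and H3K27ac was described here over the whole Nbea locus. The locus was taken as chr3:55420000-56000000 (mm9), a 580 kb window in which Mab21l1 is nested near chr3:55580000-55596000. The table held 50898 regions, and 21 of them overlapped the window. Of these 21, 18 carried the authors' class enh (read here as enhancer), from 32614 in all, and 3 carried the class prom (promoter), from 16529 in all. None of the 1755 regions of the class uaProm, an abbreviation left unexplained, lay in the window. The 2 promoter regions in the Mab21l1 stretch are called the first and the second Mab21l1 region by position. The 1 promoter region at the far end of the window is called the Nbea promoter region. The window was chosen by the measured difference of the first Mab21l1 region between heterozygous and wild-type mice, so every value of that comparison within it is given as a description with no test.

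The tested animals were C57BL/6J mice heterozygous for a knockout of Dnmt3a (DNMT3A KO/+, called Het, n = 5), and they were set against wild-type littermates of the same strain (WT, n = 5). All were 8 weeks old, and the cerebral cortex of each was profiled by ChIP-seq with an antibody to H3K27ac. The animals made up 5 litters with 1 Het and 1 WT mouse each. Litter 1 (650), litter 3 (119) and litter 5, which has no number of its own in the labels, were male, while litter 2 (651) and litter 4 (141) were female. The construction of the knockout allele is not given here. The labels conflict in 1 place: Het replicate 5 is heterozygous by its genotype label, which was followed, while its free-text description carries cKO. Because the cortex was profiled in bulk, fewer cells that carry a mark and less of the mark per cell cannot be told apart. Signal at Dnmt3a itself and at genes that mark cortical cell types was not analysed here.

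Values are the authors' pseudo-counts, reads per region adjusted to 1 common library size. Reads in regions, recovered from these values, ranged from 4209117 to 8453140 in the Het libraries and from 2771534 to 7101495 in the WT libraries, with a median of 58 reads per region and library. The first Mab21l1 region rested on 92 to 211 reads in Het libraries and on 41 to 112 in WT libraries. The shallowest library, WT replicate 5, gave the 41 reads.

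H3K27ac is an acetylation of histone H3 placed by the acetyltransferases CBP and p300, and it marks active promoters and enhancers. Dnmt3a is a de novo DNA methyltransferase that writes methylation at CG sites and, in neurons after birth, at many cytosines outside CG. Mab21l1 belongs to the Mab-21 family, named after a Caenorhabditis elegans gene that sets cell fate in the male tail, and in mice it is needed for the development of the lens and eye. Nbea encodes neurobeachin, a large BEACH-domain protein of neurons that binds protein kinase A and takes part in the membrane traffic of synaptic receptors. In the RefSeq annotation of GRCm38.p6, 6 genes lie within Nbea, and Mab21l1 is the 1 that codes for protein.

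Nbea reads on the minus strand in that annotation. The 250 bases before its start are shown because the Nbea promoter region had the strongest signal of the window and because CG sites, written here in capitals, are the main targets of DNA methylation in mammals. They were taken from RefSeq at chr3:56183702-56183951 (GRCm38.p6, minus strand), a build other than that of the regions, so the overlap of the bases with the region was not checked.
Nbea: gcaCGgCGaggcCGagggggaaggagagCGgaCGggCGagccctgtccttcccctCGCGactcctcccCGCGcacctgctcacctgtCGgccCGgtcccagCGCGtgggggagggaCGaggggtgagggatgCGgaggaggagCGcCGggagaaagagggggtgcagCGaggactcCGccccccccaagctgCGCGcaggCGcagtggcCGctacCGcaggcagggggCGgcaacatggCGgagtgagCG
These 250 bases hold 28 CG sites, a palindrome that reads the same on both strands, and 74.8% of them are G or C. At least as many CG sites were found in 7.61% of the 32851 RefSeq promoter stretches of this length, whose median was 6, and 92.1% held at least 1.

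The 21 regions were spaced unevenly. From the start of the window, 14 enhancer regions lay ahead of Mab21l1, then came the Mab21l1 regions, and 3 more enhancer regions followed closely. These 19 regions spanned 163.5 kb. The Mab21l1 regions were 2.1 kb apart, with a stretch of 21.1 kb free of regions before the first and of 5.2 kb after the second. The remaining 373.6 kb up to the Nbea promoter region held a single enhancer region at chr3:55793624-55795688, with 182.3 kb and 189.2 kb free of regions on its sides. The numbering of enhancer regions skips 1 number between this region and the next enhancer region, which lies 6.8 kb past the window. Whether the skipped number stands for a region, and where it would lie, was not determined.

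**Figure D1:**
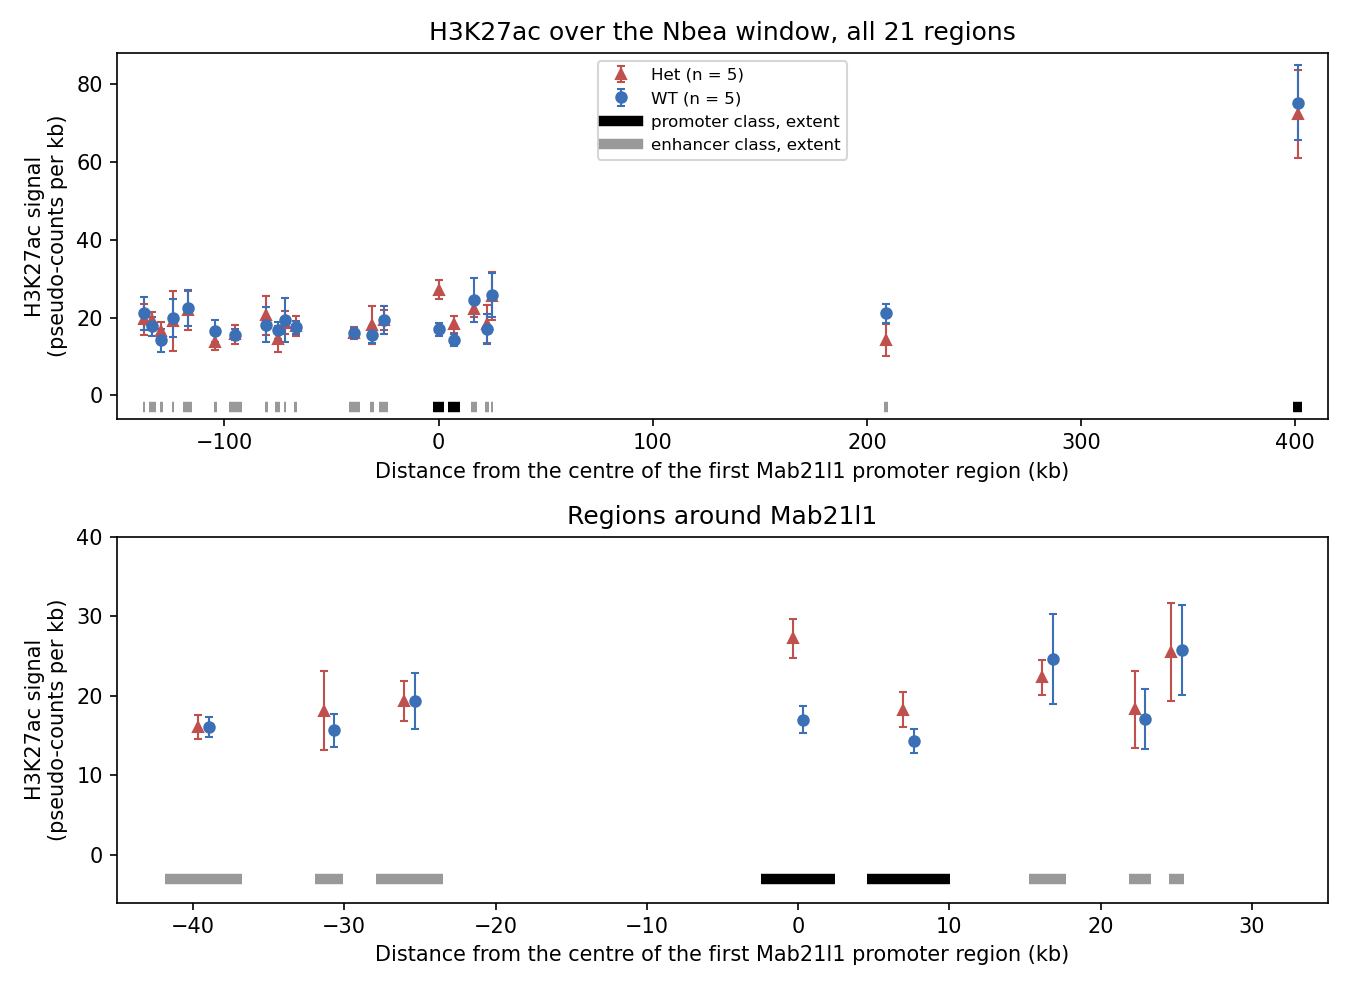
H3K27ac signal (pseudo-counts per kb, mean and SD of 5 Het and 5 WT libraries) by distance in kb from the centre of the first Mab21l1 region, for all 21 regions (top) and around Mab21l1 (bottom), with blocks under the points for the extent of each region. The Nbea promoter region stands highest at 72.4 per kb in Het and 75.2 per kb in WT, 401.0 kb from the first Mab21l1 region, where Het and WT had 27.2 and 17.0 per kb.

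The first Mab21l1 region (chr3:55583419-55588269) had more H3K27ac in every Het animal than in any WT animal. It had 126, 140, 124, 148 and 122 pseudo-counts in the Het mice of litters 1 to 5, against 74.1, 95.7, 81.6, 78.2 and 83.0 in the WT mice of litters 1 to 5. The lowest Het library thus lay above the highest WT library, and the genotypes did not overlap. Means were 132 ± 11.6 in Het and 82.5 ± 8.12 in WT (SD, n = 5 each), a log2 difference of 0.67 (SE 0.11, 95% interval 0.45 to 0.89), or 1.59-fold. Litter by litter the log2 differences were 0.75, 0.55, 0.60, 0.91 and 0.55, all positive, the largest in the female litter 141. As RPM, the recovered reads scaled only to the reads in regions of the library, it had 23.6 ± 2.01 in Het and 14.7 ± 1.42 in WT. The authors' deposited table gives it a log2 fold change of 0.68 with an FDR of 0.000421, from the same libraries. In the fit over all regions it was the 1 region called at a limma adjusted p under 0.05, which is 0.00196% of 50898, and this is the value that chose the window. That fit has sex but not litter as a term, so it does not pair the littermates. In it the call ended when Het replicate 1, 2 or 4 or WT replicate 1, 3 or 4 was left out. It also ended without the sex term, and when both animals of litter 1, 2, 4 or 5 were left out. The log2 difference stayed between 0.62 and 0.71 without any single library. With the litter as a block the SE was 0.10 and the call stayed, and no library was left out of that paired fit.

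The second Mab21l1 region (chr3:55590375-55595900) also had higher values in all 5 Het animals than in all 5 WT animals, by a smaller margin. It had 95.3, 121, 99.4, 89.9 and 98.8 pseudo-counts in the Het mice of litters 1 to 5, against 73.5, 87.9, 87.9, 69.2 and 77.4 in the WT mice of litters 1 to 5. The genotypes did not overlap, although Het replicate 4 lay only just above the highest WT libraries. Means were 101 ± 12.1 in Het and 79.2 ± 8.49 in WT (SD, n = 5 each), a log2 difference of 0.35 (SE 0.12, 95% interval 0.10 to 0.59), or 1.27-fold. The litters gave 0.37, 0.46, 0.17, 0.37 and 0.35, the smallest in litter 119. It was not called in the fit. The authors' deposited table gives it a log2 fold change of 0.36, with an FDR of 1.0. Leaving out single libraries moved the log2 difference between 0.27 (without Het replicate 2) and 0.40 (without Het replicate 4).

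**Figure D2:**
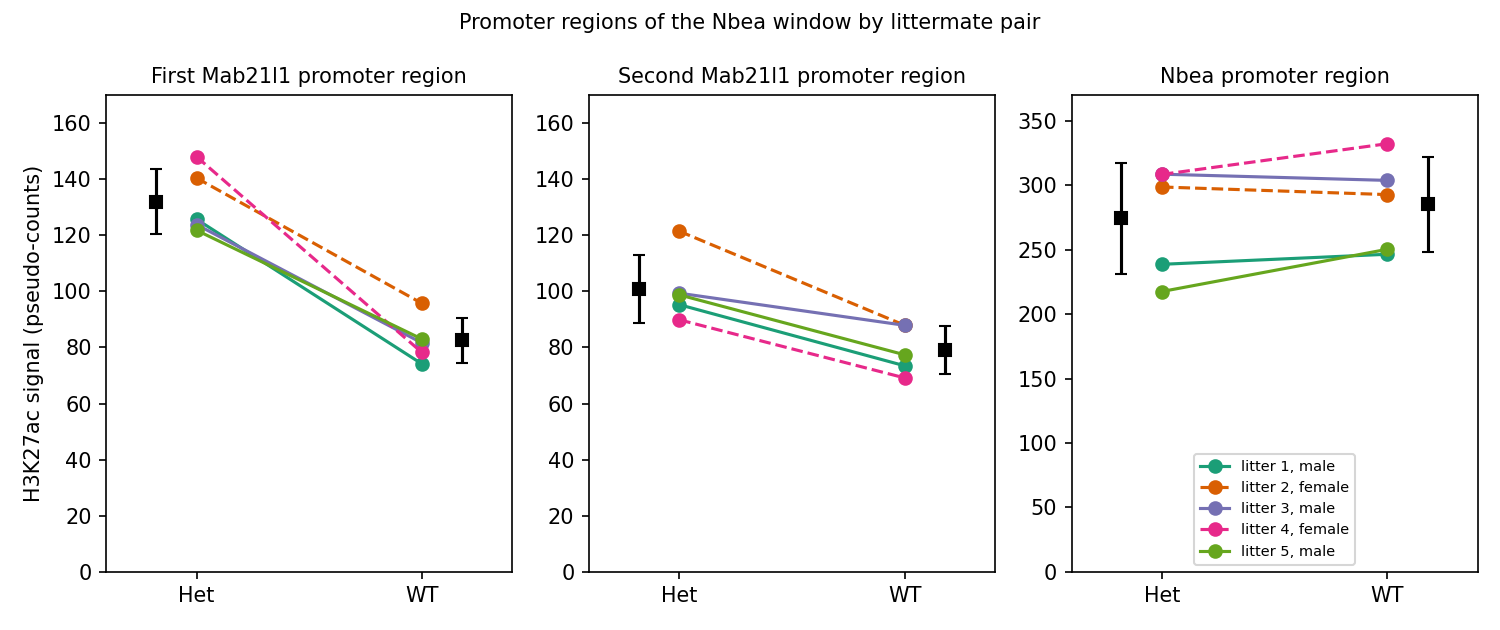
H3K27ac (pseudo-counts) of the 3 promoter regions of the window in Het and WT, a point per animal, littermates joined by a line, with the mean and SD of 5 animals per genotype. All 5 lines point to a higher Het value in both Mab21l1 regions, while 2 of 5 do so in the Nbea promoter region.

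Regions in which every Het library exceeded every WT library made up 0.226% of all 50898 regions (115), and both Mab21l1 regions were among them. The reverse pattern, every Het library below every WT library, was found in 76 regions (0.149%) and in 0 of the 21. These counts use the contrast that chose the window, and they add no test. The first region exceeded the second by a ratio of 1.32 ± 0.191 in Het and of 1.05 ± 0.0789 in WT (SD, n = 5 each). The ratio was higher in the Het animal in 5 of 5 litters, and the Het range of 1.16 to 1.65 did not overlap the WT range of 0.929 to 1.13. In WT cortex the regions thus had nearly equal values, and in Het cortex the first stood above the second. This ratio contains the values that chose the window, so it adds no test either.

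Set among the promoter regions of the whole table, the Mab21l1 regions were wide and modest in signal per kb. By signal over the whole region, with Het and WT pooled, they ranked nearer the middle, the first at percentile 48.4 and the second at percentile 41.2. The first was 4850 bp and the second 5525 bp wide, wider than 70.3% and 74.8% of promoter regions, whose median was 3057 bp. Per kb, the first had 27.2 pseudo-counts in Het and 17.0 in WT, and the second 18.3 in Het and 14.3 in WT. The median promoter region had 31.2 per kb over all libraries. With Het and WT pooled, the first region ranked at percentile 27.7 of promoter regions by signal per kb and the second at percentile 9.9. The enhancer regions of the locus had 15.2 to 25.7 per kb over all libraries. The second region, at 16.3 over all libraries, lay within that range, and the first lay within it in WT and above it in Het.

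The first and second Mab21l1 regions followed each other over the 10 libraries with a Pearson r of 0.82 and a Spearman rho of 0.82 on the log2 scale. The libraries share the genotype contrast that chose the window, and within genotypes r was 0.41, so these are descriptions with no p. Among regions of the whole table with a mean of 20 or more, those with the most similar pattern to the first region were chr13:45734944-45742187 (enhancer, r = 0.93), chr16:35754793-35756972 (enhancer, r = 0.91), chr12:32574760-32583403 (enhancer, r = 0.89), chr6:54335428-54339720 (enhancer, r = 0.89) and chr2:115678130-115687415 (uaProm, r = 0.89). All 5 had higher means in Het, by 0.16 to 0.36 on the log2 scale. A pick by similarity to a region higher in every Het animal favours this direction. Within the window only the second Mab21l1 region came close, and next were chr3:55553976-55555803 and chr3:55450615-55453797, each with an r of 0.41. The most similar regions thus lay on other chromosomes, picked as the extremes among all regions tested.

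The Nbea promoter region (chr3:55984935-55988727) had the strongest signal of the locus and similar values in both genotypes. It had 239, 299, 309, 308 and 218 pseudo-counts in the Het mice of litters 1 to 5, against 246, 293, 304, 332 and 250 in the WT mice of litters 1 to 5. The genotypes overlapped over most of their range, and the litters differed more than the littermates did. Means were 274 ± 43.1 in Het and 285 ± 36.5 in WT (SD, n = 5 each), a log2 difference of -0.061 (SE 0.10, 95% interval -0.27 to 0.15), with 2 of 5 litters higher in Het. At 73.8 pseudo-counts per kb over all libraries it ranked at percentile 97.1 of promoter regions, although its width of 3792 bp was ordinary (percentile 60.3).

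Relative to the host gene's promoter, the nested gene's regions had higher mean ratios in Het. The ratio of the first region contains the values that chose the window, so both ratios are descriptions that add no test. The first Mab21l1 region had 0.488 ± 0.0603 of the Nbea promoter region's value in Het and 0.293 ± 0.0407 in WT. For the second, the ratio was 0.375 ± 0.0664 in Het and 0.281 ± 0.0414 in WT (SD, n = 5 each). Both ratios were higher in Het in 5 of 5 litters. For the second the genotypes overlapped, with 0.291 to 0.454 in Het and 0.208 to 0.309 in WT. The lowest WT value, in WT replicate 4, lay apart from the other WT libraries. Each ratio is taken within a library, so a factor that scales a whole library cancels. A difference between libraries that acts unequally on regions does not cancel. The Nbea promoter region followed the share of a library's signal in the strongest 5% of regions (Pearson r 0.827, described below). The part of this share in the ratios was not tested. Over the 10 libraries, the first region and the Nbea promoter region showed an r of -0.01, and the second and the Nbea promoter region an r of -0.048. Within genotypes, where the contrast that chose the window is taken out, r was 0.43 for the first and 0.12 for the second, again as descriptions.

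The 18 enhancer regions within Nbea lay around a difference of 0 as a group. Their median log2 difference between Het and WT was -0.0088, with a range of -0.57 to 0.22, and 8 of 18 (44.4%) were above 0. All 32614 enhancer regions of the table had a median of 0.028, with 58.0% above 0. In signal per kb the 18 were also ordinary, with 15.2 to 25.7 pseudo-counts and a median of 18.2, against a median of 17.8 over all enhancer regions. Their median signal over the whole region was lower, at 28.6 pseudo-counts against 42.0. Their median width was smaller, at 1658 bp against 2377 bp. The summed signal of the 18 was 760 ± 66.9 in Het and 774 ± 55.6 in WT (SD, n = 5 each). The 14 ahead of Mab21l1 had a median of 0.0012, with 7 above 0.

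**Figure D3:**
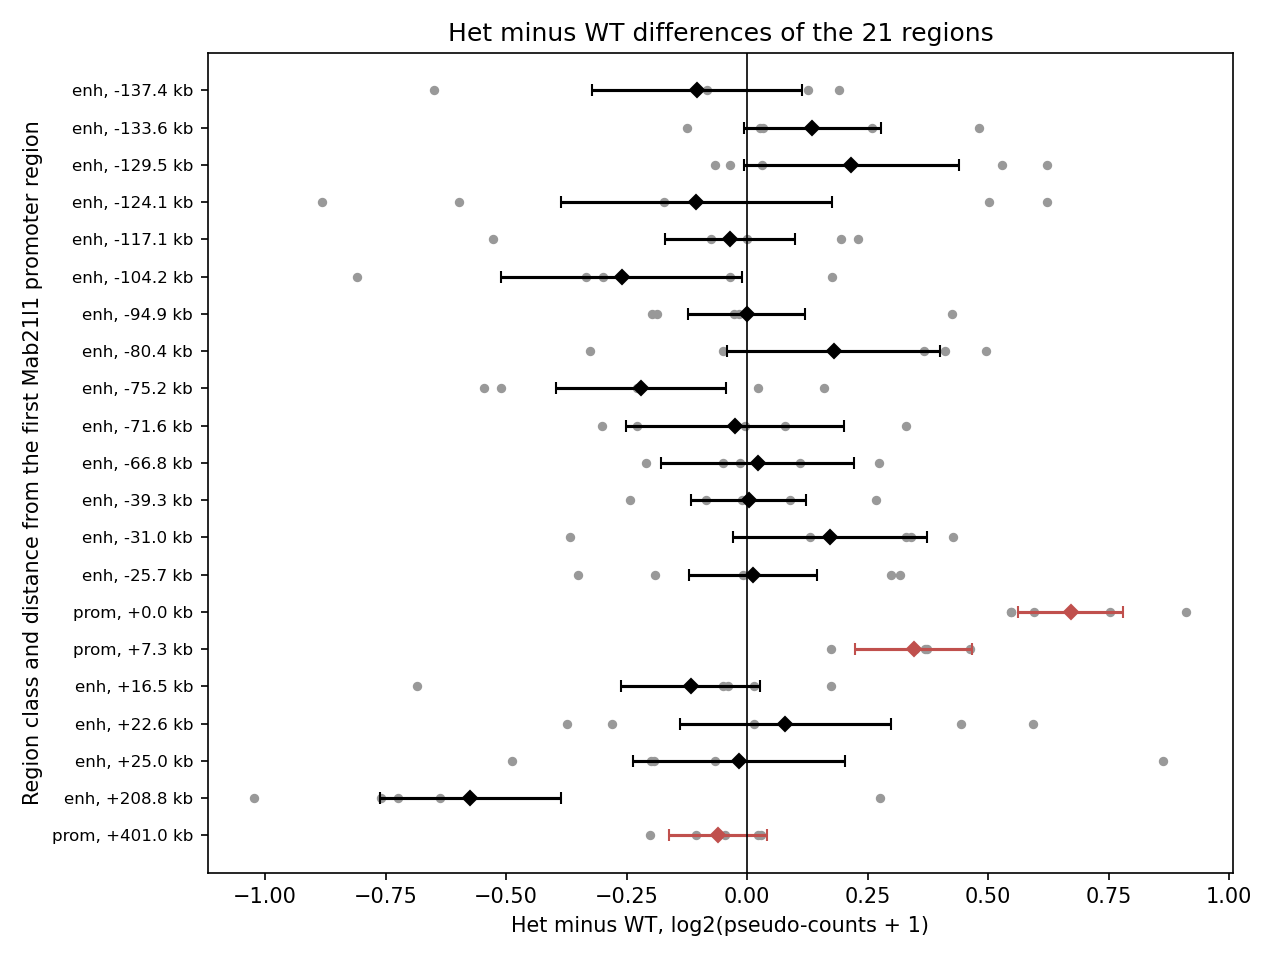
Het minus WT log2 difference (log2 of pseudo-counts plus 1) of each of the 21 regions in chromosome order, with the SE from the fit over all regions as bars and a small grey point for each of the 5 litters, promoter regions in red. The first and second Mab21l1 regions stand at 0.67 and 0.35 with all litters above 0, while the enhancer regions run from -0.57 to 0.22.

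The enhancer regions next to Mab21l1 had Het minus WT differences within 1 SE of 0. On the start side, chr3:55557909-55562341 had 97.3, 97.7, 73.3, 79.8 and 80.9 pseudo-counts in the Het mice of litters 1 to 5, against 79.0, 98.3, 83.8, 63.9 and 103 in the WT mice of litters 1 to 5, a log2 difference of 0.013 (SE 0.13). On the end side, chr3:55601074-55603564 had 55.0, 65.2, 51.4, 53.2 and 53.3 in Het, against 57.0, 57.7, 52.8, 86.2 and 52.8 in WT, a log2 difference of -0.12 (SE 0.14). The genotypes overlapped in both, and the second value hung on the high WT replicate 4, without which it was -0.0079 (SE 0.15). The densest enhancer region of the locus, chr3:55610397-55611363, had 25.7 pseudo-counts per kb over all libraries. It had 24.7 ± 5.99 pseudo-counts in Het and 24.9 ± 5.47 in WT (SD, n = 5 each), a log2 difference of -0.017 (SE 0.22).

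The extremes among the enhancer regions lay apart from Mab21l1. The lowest difference was at chr3:55793624-55795688, the isolated region between Mab21l1 and the Nbea promoter region. It had 44.3, 29.1, 25.9, 25.6 and 22.9 pseudo-counts in the Het mice of litters 1 to 5, against 36.4, 48.7, 40.9, 44.0 and 47.5 in the WT mice of litters 1 to 5. The Het animals were lower in 4 of 5 litters, and Het replicate 1 alone reached into the WT range. Means were 29.6 ± 8.53 in Het and 43.5 ± 5.02 in WT (SD, n = 5 each), a log2 difference of -0.57 (SE 0.19). Leaving out single libraries moved this difference between -0.74 (SE 0.18, without Het replicate 1) and -0.49 (SE 0.19, without Het replicate 5). The values rest on 19 to 45 reads per Het library and on 24 to 57 per WT library. The region was not called in the fit, and the authors' deposited table gives it a log2 fold change of -0.55 with an FDR of 1.0. The highest difference was at chr3:55455702-55457042, which had 25.6, 17.3, 23.9, 23.2 and 20.4 in Het, against 16.3, 16.9, 24.5, 15.8 and 21.4 in WT. The genotypes overlapped, the log2 difference of 0.22 had an SE of 0.22, and 3 of 5 litters were higher in Het.

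Taken as shares of the window's summed signal, both Mab21l1 regions held 18.4 ± 0.860% in Het and 13.2 ± 0.804% in WT (SD, n = 5 each). The Het libraries held 17.1 to 19.3%, against at most 14.0% in the WT libraries, so the genotypes did not overlap. This share contains the values that chose the window, so its separation adds no test. The Nbea promoter region held 21.6 ± 2.95% in Het and 23.3 ± 2.47% in WT, and the 18 enhancer regions held 60.0 ± 3.20% in Het and 63.4 ± 2.07% in WT. The share of the enhancer regions was lower in Het in 5 of 5 litters, and since shares of 1 sum depend on each other it is no separate result. The summed signal of the window was 1267 ± 90.2 in Het and 1221 ± 82.3 in WT.

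At the window's edges, the nearest region on the start side, chr3:55373974-55378655 (enhancer, 41.3 kb outside), had 136 ± 11.5 pseudo-counts in Het and 158 ± 13.4 in WT, a log2 difference of -0.21 (SE 0.0996). The nearest on the other side, chr3:56006794-56009587 (enhancer, 6.8 kb outside), had 56.8 ± 6.95 in Het and 56.9 ± 15.2 in WT, a log2 difference of 0.033 (SE 0.16). Just inside, chr3:55447910-55448965 had 20.6 ± 4.24 in Het and 22.2 ± 4.50 in WT (SD, n = 5 each).

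Sex and litter were not used to choose the window, so they were tested. Males (n = 6, 3 litters) were compared with females (n = 4, 2 litters), with genotype as a term. None of the 21 regions passed at a limma adjusted p under 0.05, against 0.904% of all regions (460 of 50898). An unadjusted p under 0.05 was found for 2 of 21, against 13.2% of all regions, and limma-voom on the recovered reads also called 0. In pseudo-counts, the first Mab21l1 region averaged 102 ± 24.4 in males and 116 ± 34.0 in females, a log2 difference of -0.17 (95% interval -0.40 to 0.057, limma adjusted p 0.55). The second had 88.7 ± 11.1 in males and 92.1 ± 21.7 in females, a log2 difference of -0.035 (95% interval -0.29 to 0.22, limma adjusted p 0.944). True differences of any size within these intervals remain compatible with the values of these animals.

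The Nbea promoter region and the enhancer region chr3:55466681-55470717 came nearest to a call between the sexes. In the Nbea promoter region values averaged 261 ± 36.9 in males and 308 ± 17.4 in females, a log2 difference of -0.25 (SE 0.10, limma adjusted p 0.268). The enhancer region had 80.5 ± 16.9 in males and 103 ± 11.0 in females, a log2 difference of -0.37 (SE 0.14, limma adjusted p 0.195). Both passed when Het replicate 3 was left out, with a limma adjusted p of 0.0377 for the Nbea promoter region and of 0.0425 for the enhancer region. They also passed without both animals of litter 119, with a limma adjusted p of 0.0128 and of 0.0237. The share of all regions that passed in these settings is not given here, and these fits treat littermates as independent. With the litter as a random effect, added after seeing the data, the limma adjusted p was 0.473 for the Nbea promoter region and 0.389 for the enhancer region. Males and females came from separate litters, so sex and litter cannot be told apart.

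The Het minus WT difference of the first Mab21l1 region was 0.63 in males and 0.73 in females, and the interaction was -0.098 (SE 0.23, 95% interval -0.56 to 0.37). For the second region the interaction was -0.12 (SE 0.25, 95% interval -0.64 to 0.40), and for the Nbea promoter region -0.036 (SE 0.22, 95% interval -0.48 to 0.41). No region of the window passed the limma interaction test, which also called 0 (0%) of all 50898 regions. At an unadjusted p under 0.05 there were 0 of 21 in the window and 694 (1.36%) over all regions, and limma-voom called 0. The intervals are wide, and an interaction nearly as large as the genotype difference of the first region itself lies within them.

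Differences between litters, with genotype as a term, passed in 2 of the 21 regions by the limma F test, against 14.3% of all regions. The first was the Nbea promoter region (limma adjusted p 0.00685). Its litter means were 243, 296, 306, 320 and 234 pseudo-counts for litters 1 to 5, so the male litters 650 and 5 were low and the other 3 were high. The second was chr3:55466681-55470717, 117.1 kb before the first Mab21l1 region (limma adjusted p 0.00743). It had 69.7, 118, 92.3, 92.9 and 69.0 in the Het mice of litters 1 to 5, against 101, 103, 92.3, 97.9 and 58.6 in the WT mice of litters 1 to 5. Litter 5 was the lowest, with a mean of 63.8, and litter 651 the highest, with 111. The call of the Nbea promoter region ended without Het replicate 5 (limma adjusted p 0.081) or WT replicate 4 (limma adjusted p 0.0536). The call of the enhancer region ended without Het replicate 2 (limma adjusted p 0.0745) or WT replicate 5 (limma adjusted p 0.205).

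The Mab21l1 regions did not pass the litter test. The litter means of the first were 99.9, 118, 103, 113 and 102 (limma adjusted p 0.678), and the limma adjusted p of the second was 0.393. The first Mab21l1 region also had a small spread within genotype, with a coefficient of variation of 8.8% in Het and 9.8% in WT. Its residual SD of 0.0972 on the log2 scale was the lowest of the 21, but this spread enters the contrast that chose the window. For the Nbea promoter region the coefficients were 15.7% in Het and 12.8% in WT.

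**Figure D4:**
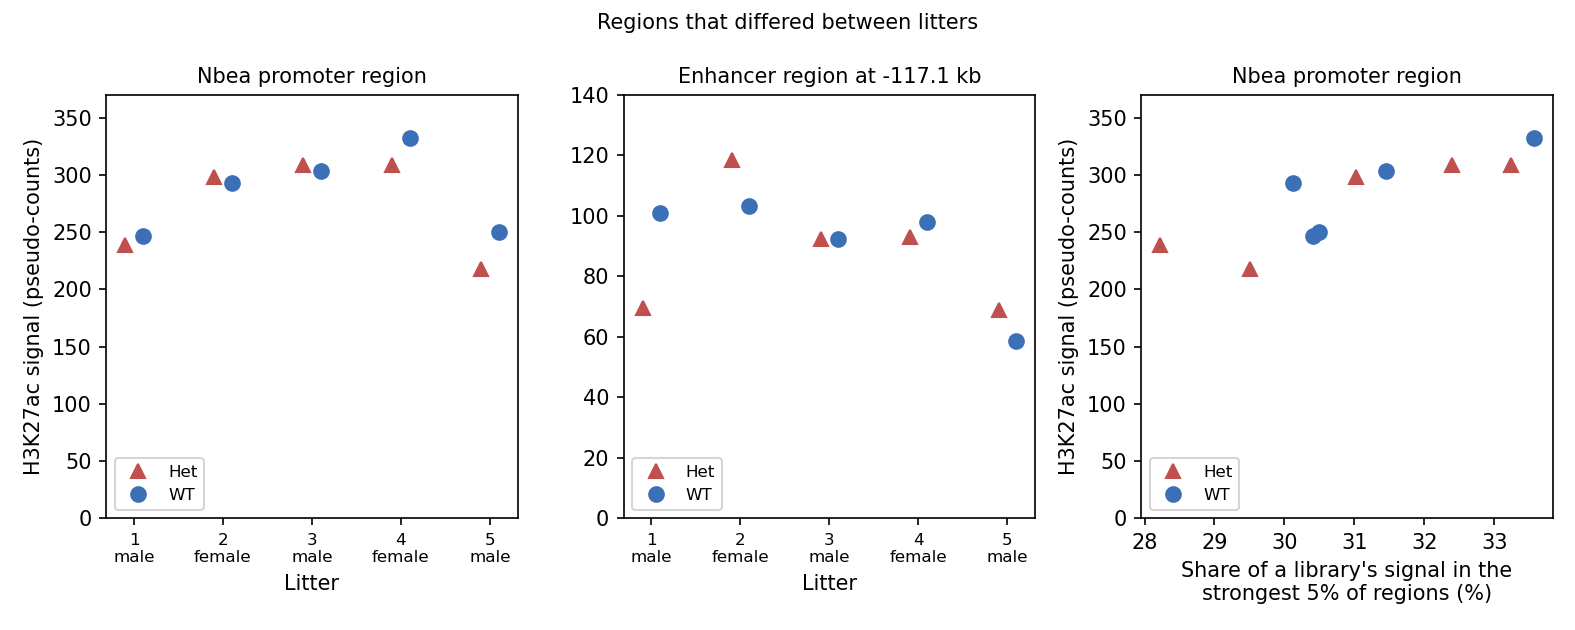
H3K27ac (pseudo-counts) in each Het and WT library by litter and sex, for the Nbea promoter region (left) and the enhancer region 117.1 kb before the first Mab21l1 region (middle), and the Nbea promoter region against the share (%) of each library's signal in the strongest 5% of regions (right). Litters 1 and 5 are low at the Nbea promoter region, and libraries with a larger share have higher values (Pearson r 0.827).

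The libraries also differed in how much of their signal fell in the strongest 5% of regions, which held 30.9 ± 2.05% in Het and 31.2 ± 1.41% in WT (SD, n = 5 each). The Nbea promoter region, which is not itself among these, followed this share over the 10 libraries with a Pearson r of 0.827 (permutation p 0.00309, adjusted p 0.00927 over 3 relations). Its Spearman rho was 0.952 (permutation p 0.00016, adjusted p 0.00048). Without the 2 libraries farthest from the median share, WT replicate 4 and Het replicate 1, r was 0.757, and within the 6 males it was 0.838. The 4 females were too few for a value. For the first Mab21l1 region r was -0.0828 (permutation p 0.819) and rho -0.0667 (permutation p 0.865), and for the second r was -0.216 (permutation p 0.556) and rho -0.176 (permutation p 0.637). Without the same 2 libraries, r was 0.399 for the first and 0.209 for the second, so the sign at the Mab21l1 regions rests on those libraries. The relation passed for the Nbea promoter region, and none was detectable for the Mab21l1 regions with 10 libraries. The difference between regions was not tested. How many of all regions follow this share as closely was not computed, so the relation cannot be called particular to the Nbea promoter region. With abundance-dependent loess, which removes trends with mean signal between libraries, the litter test of the Nbea promoter region had a limma adjusted p of 0.0503. Libraries of a litter are not independent of each other, and the part of this share in the litter differences was not tested further.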

How the data were processed

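The submitters' processing notes name Bowtie2, edgeR and the build mm9, without versions. The deposited signal per region is, per the file headers, a pseudo-count, a read count adjusted to a common library size. The authors' deposited table also gives a log2 fold change, a p-value and an FDR per region. The calling and classing of regions is not described. The adjustment was made around a mean for each genotype, so the values already carry the genotype labels, and a change of acetylation everywhere would not be seen.

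Reads were recovered as whole numbers by undoing the adjustment at a common dispersion of 0.0151. A tolerance of 0.1 read held for 100.0% of values after rounding, with 16 values outside. The steps were not linear, and these reads gave the depth and a limma-voom alternative. Planned count tests did not apply. The main test was limma 3.58.1 (R 4.3.3, trend and robust) on log2(value + 1) over all 50898 regions with Benjamini-Hochberg adjustment, a threshold of 0.05 and no filter on low values. The added 1 shrinks the fold changes of weak regions. Genotype was fitted with sex, sex with genotype, their interaction as a coefficient, and litters by an F test with genotype. P-values are two-sided. Correlations with signal concentration used 100000 resamples. Recovery and fits were tested on simulated data.

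The window, its members and all lists were chosen with earlier results of these data known. Regions described in full are the promoter regions, the 3 enhancer regions with the most signal per kb, those with the highest and the lowest Het minus WT difference, the neighbours of Mab21l1 on each side, and those past the sex, interaction or litter test. The most similar regions were the 5 outside and 3 inside the window with the highest Pearson r. The labels name littermates, so replicate numbers pair the animals. Deviations from the genotype means correlated within litters at 0.232, 0.123, 0.0796, 0.365 and 0.419 for litters 1 to 5. Each library is 1 animal. Only promoter sequence came from GRCm38.p6, and 1 of the pair Mab21l1 and Nbea had an entry. Which Mab21l1 region holds the gene's start was not determined. Alternatives were other scalings, loess, a filter at a mean of 20, pseudocounts of 0.5 and 5, a threshold of 0.1, limma-voom, the litter as a block, no sex term, and dropping single libraries or litters.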

Additional observations from a re-analysis of the deposited data

Results flagged for a closer look

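A single library lay apart from the other 4 of its genotype in 6 of the 58 groups examined, where chance gives about 2.9 at 1 in 20. At chr3:55601074-55603564, the enhancer region that follows Mab21l1, both genotypes had such a library, with 65.23 pseudo-counts in Het replicate 2 against 51.4 to 55.0 in the other Het libraries, and with 86.17 in WT replicate 4 against 52.8 to 57.7 in the other WT libraries. At chr3:55793624-55795688, Het replicate 1 had 44.3, against 22.9 to 29.1 in the other Het libraries. At chr3:55466681-55470717, WT replicate 5 had 58.64, against 92.3 to 103 in the other WT libraries. At chr3:55488035-55493889, WT replicate 2 had 105.1, against 86.0 to 91.2 in the other WT libraries. The ratio of the second Mab21l1 region to the Nbea promoter region was 0.2082 in WT replicate 4, against 0.289 to 0.309 in the other WT libraries. No group of the first Mab21l1 region, of the second or of the Nbea promoter region alone held such a library.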

How the results depend on the processing

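The log2 difference of the first Mab21l1 region was 0.66 with TMM factors, 0.65 with median-of-ratios factors, 0.67 with loess, 0.69 with limma-voom, and 0.67 and 0.65 with pseudocounts of 0.5 and 5. With the replicate block in place of sex it was 0.67 and the count between genotypes stayed at 1, and the block changed no other call of the window. Without the sex term that count was 0. When 1 library or litter was left out, the log2 difference ran from 0.61 to 0.71 and the count between genotypes from 0 to 1. The count between sexes ran from 0 to 2, that between litters from 0 to 2, and the interaction stayed at 0. With loess 1 region differed between litters. With the litter as a random effect, added after seeing the data, 0 regions differed between sexes. Of values with a test, 4 that did not pass also changed sign without some library or litter. Over these settings the interaction ran from -0.28 to 0.084 at the first Mab21l1 region, from -0.34 to 0.095 at the second and from -0.18 to 0.070 at the Nbea promoter region, and the male minus female log2 difference of the second Mab21l1 region from -0.23 to 0.16. Among the enhancer regions described in full, 4 with a Het minus WT log2 difference no larger than 0.12 changed sign under some setting, and chr3:55557909-55562341 did so with TMM and median-of-ratios factors. Counted as combinations of a tested value of a single region with a setting, 4 newly passed and 9 no longer passed. The new passes were sex differences and the lost ones litter differences, all at the Nbea promoter region and chr3:55466681-55470717. The cause was not tested. Depth differed widely between the enhancer regions, from 166 to 960 reads over the 10 libraries, with as few as 6 in 1 library.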
